A study of Mus musculus with 15 samples.

Results

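The 4 Egr transcription factor genes (Egr1, Egr2, Egr3 and Egr4) and the genes of the 2 Nab corepressors (Nab1 and Nab2) were followed in mouse epiblast-like cells (EpiLCs) while ERK signalling was switched on and then blocked. The members were taken by their Ensembl mouse gene identifiers, and all 6 were found among the 52636 rows of the count table. All cells were of the line CRAFR26, which carries a construct that switches on ERK when induced by 4-hydroxytamoxifen (4OHT). Embryonic stem cells were taken through 2 passages as RSCs and then 48 h in EpiLC medium with bFGF, Activin A and XAV939. All groups, 0h included, first spent 2 h in 250 nM PD17, which inhibits FGF receptors; 4OHT was then used at 250 nM. The 0h group (n = 3) had PD17 alone, the 2h group (n = 4) had 2 h of 4OHT, and the 4h group (n = 4) had 4 h of 4OHT. The rev group (n = 4) had 4 h of 4OHT and then 2 h of a MEK inhibitor that the labels do not name, and they do not say whether 4OHT was kept during those 2 h. Libraries came from 2 clones of the line, clone 4 (7 libraries) and clone 8 (8 libraries), and 0h held 1 library of clone 4. The authors discarded another 0h sample in their quality control. Whether the libraries of a clone came from separate cultures is not given in the sources used here, so the p-values measure the spread between these libraries. No group that kept 4OHT for the full time of rev without the inhibitor was analysed here, so elapsed time, the MEK inhibitor and any removal of 4OHT cannot be told apart in rev.

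The Egr proteins are zinc finger transcription factors that bind GC-rich sites of the form GCGNGGGCG. Their genes are immediate early genes: the ERK pathway phosphorylates ETS factors such as Elk1, which sit with serum response factor (SRF) on CArG boxes and switch transcription on without new protein synthesis. Nab1 and Nab2 bind the Egr proteins, mostly repress the genes that they occupy, and are themselves known as Egr targets, so the factors and their corepressors are usually described as a negative feedback loop.

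Total counts lay between 8667880 and 13004556 in the 0h, 2h and rev libraries and between 1552022 and 6658950 in the 4h libraries. All 8 epiblast markers had a mean over 1 CPM (CPM, a gene's counts scaled to library size, here with the TMM factors of edgeR) in every group. Their summed level was 785 to 897 CPM at 4h and 1024 to 1483 CPM in the other libraries. Dnmt3b made the largest part of that sum (mean 935.3 CPM at 0h and 416.3 at 4h), and Pou5f1, Pou3f1 and Fgf5 were also lowest at 4h. The other epiblast markers went the other way: Sox2 (22.3 CPM at 0h and 111.2 at 4h), Lef1, Otx2 and Sall2 had higher means at 4h than at 0h. At 4h the 6 naive pluripotency markers summed to 55.6 to 224.5 CPM against 29.4 to 38.1 elsewhere, and the 3 neural markers to 43.4 to 55.8 CPM against 5.40 to 16.9. Of these lists, the naive marker Klf4 and the neural marker Neurod1 had means at 4h (2.57 and 4.90 CPM) within the range of the other groups. Markers of primitive endoderm, mesendoderm and fibroblasts summed to at most 5.16, 11.35 and 12.96 CPM in any library, and the fibroblast marker Postn was at 0 in all of them. The part of depth and of these markers in the values at 4h was not tested, and in bulk RNA fewer cells of a type and less RNA per cell cannot be told apart.

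All 6 genes rose with 2 h of induction and were above 0h in rev as well. By edgeR's quasi-likelihood test with Benjamini-Hochberg adjustment over 13451 genes, 6 of 6 members were higher in 2h vs 0h, where 3.98% of all tested genes were called higher. In 4h vs 2h the 4 Egr genes fell and neither Nab gene was called over both clones, beside 19.2% of all genes called lower; in clone 8 alone both Nab genes fell too. In 4h vs 0h 6 of 6 members were higher, against 20.5% of all genes. With only these 2 groups in the fit Egr2 and Egr4 did not pass the count filter, being tested through the groups where they were high, and 3 members were called. In clone 8 alone neither Egr2 (log2 fold change 0.95, adjusted p = 0.241) nor Egr4 (0 counts at 4h) was called higher at 4h. In rev vs 4h Egr2 and Egr4 rose, against 15.1% of all genes called higher. With only rev and 4h in the fit Egr4 did not pass the count filter. In clone 4 alone neither rise passed (adjusted p = 0.218 for Egr2 and 0.093 for Egr4). In rev vs 0h 6 of 6 members were higher, against 6.49% of all genes. Between rev and 2h, Egr1 and Egr4 were lower, against 0.922% of all genes called lower. The comparisons share groups, so these counts are not independent of each other.

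**Figure D1:**
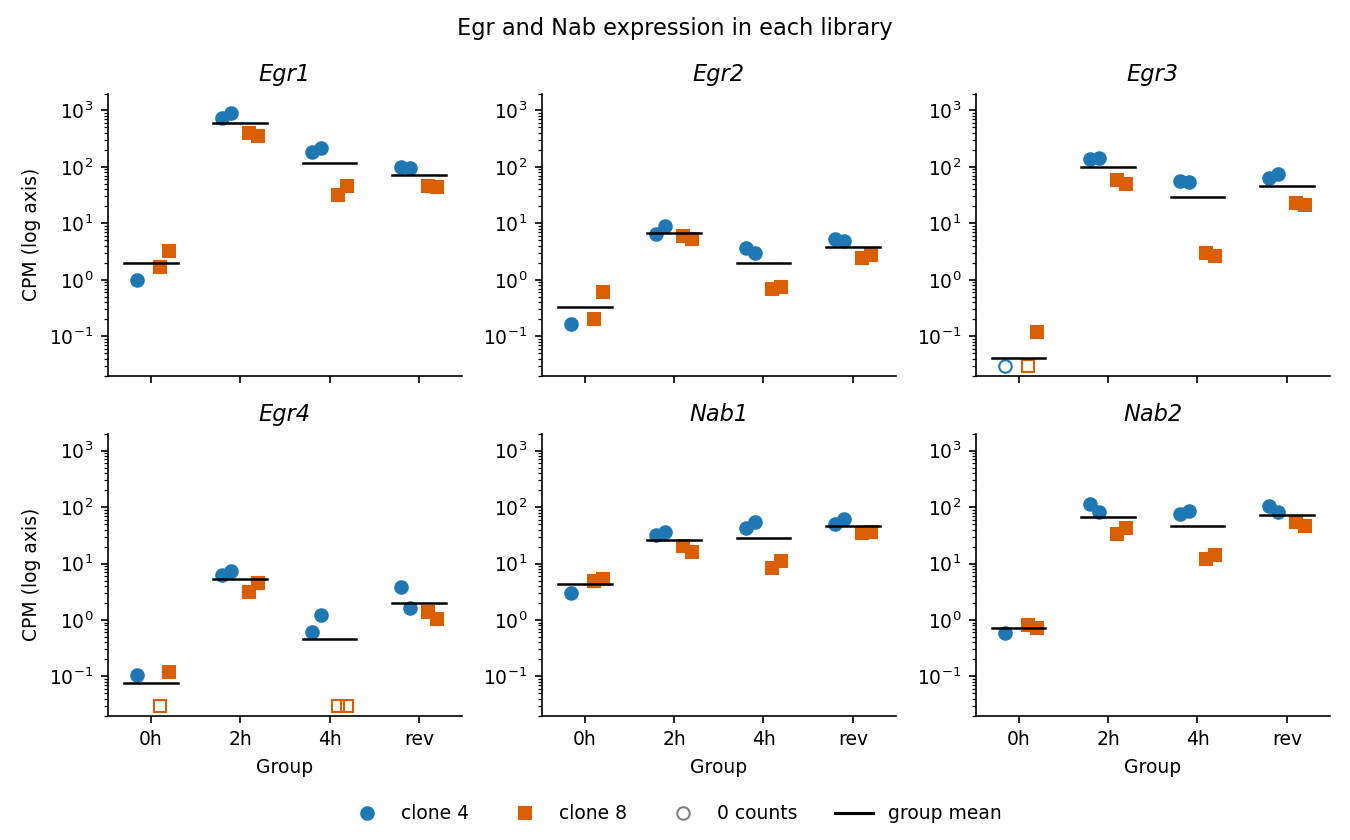
CPM on a log axis in each of the 15 libraries for the 6 genes, by group; circles are clone 4, squares clone 8, open symbols libraries with 0 counts (drawn at the foot of the axis), and black lines group means. Every gene is higher at 2h than at 0h, and at 4h the libraries of clone 8 lie below those of clone 4 in all 6 panels.

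Egr1 (ENSMUSG00000038418; chromosome 18, 34859823 to 34864984, plus strand, in GENCODE M21) is the founding member of the family and the one most often used to read out ERK activity. It had 0.972 CPM in the 0h library of clone 4 and 1.67 and 3.27 CPM in those of clone 8, from 18 to 27 counts. At 2h it reached 730.1 and 910.1 CPM in clone 4 and 403 and 352 CPM in clone 8. The lowest 2h library was far above the highest 0h library, and clone 4 was the higher of the clones at 2h. Mean levels were 1.97 ± 1.18 CPM at 0h (SD, n = 3) and 599 ± 267 CPM at 2h (SD, n = 4), a log2 fold change of 7.86 (SE 0.732, adjusted p = 0.000136 by edgeR).

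After 4 h of 4OHT, Egr1 stood at 180.2 and 220.2 CPM in clone 4 and 31.2 and 45.6 CPM in clone 8. All 4 values were below every 2h value, and the mean of 119 ± 95.01 CPM (SD, n = 4) was 5.02-fold lower than at 2h (log2 fold change -2.54, SE 0.491, adjusted p = 0.00221 by edgeR). In rev Egr1 was 99.4 and 96.3 CPM in clone 4 and 45.1 and 44.2 CPM in clone 8. Both rev libraries of clone 4 were below both of its 4h libraries, and those of clone 8 overlapped its 4h libraries. Egr1 in rev was 8.40-fold lower than at 2h by the means (log2 fold change -3.07, SE 0.495, adjusted p = 0.00884), with 8.38-fold in clone 4 and 8.45-fold in clone 8. That call was lost without the clone term (adjusted p = 0.081). Against 0h, rev was still 36.2-fold higher (log2 fold change 4.79, SE 0.651, adjusted p = 0.0012), and the groups did not overlap.

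Egr2 (ENSMUSG00000037868; chromosome 10, 67535475 to 67542188, plus strand), known from Schwann cell myelination and hindbrain patterning, was far less abundant than Egr1. It had 3, 3 and 5 counts in the 0h libraries, which is 0.162, 0.201 and 0.606 CPM. At 2h it had 58 and 102 counts in clone 4 (6.58 and 9.02 CPM) and 68 and 98 counts in clone 8 (5.93 and 5.25 CPM). The groups were apart, and the log2 fold change was 4.45 (SE 0.410, adjusted p = 2.95e-07 by edgeR). At 4h it fell to 3.67 and 2.96 CPM in clone 4 and to 0.683 and 0.754 CPM in clone 8 (log2 fold change -1.90, SE 0.343, adjusted p = 0.000159). The clone 8 values stand for 3 and 2 counts, and the fall there was at least 6.16-fold against the level of 3 counts per library.

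In rev Egr2 was 5.19 and 4.96 CPM in clone 4 and 2.40 and 2.80 CPM in clone 8. In each clone both rev libraries were above both 4h libraries, while across the clones the groups overlapped. Its rise in rev vs 4h (log2 fold change 1.05, SE 0.353, adjusted p = 0.0274 by edgeR) was lost without 4h clone8_1 (adjusted p = 0.121), without 4h clone8_2 (0.0863), without rev clone4_1 (0.0649) and without the clone term (0.0914). In clone 4 alone the rise did not pass (log2 fold change 0.67, adjusted p = 0.218). All rev libraries lay below all 2h libraries, yet the difference from 2h did not pass (log2 fold change -0.85, SE 0.272, adjusted p = 0.122). It passed in 5 of 11 alternative settings, among them DESeq2 (adjusted p = 0.0151) and edgeR with only the 2 groups in the fit (0.00935).

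Promoter windows of Egr2 show the 2 kinds of site through which ERK signalling is known to reach Egr genes. RefSeq lists several starts for Egr2, and the windows run from 250 bases before to 50 after a start in build GRCm38.p6 (RefSeq). They were searched on both strands for the CArG box, the ETS core CCGGAA, the Egr site GCGNGGGCG, the cyclic AMP element TGACGTCA and the AP-1 element TGANTCA. The first stretch, upstream of the start at 67537566, holds a CArG box between ETS cores, and the second, upstream of the start at 67537869, holds another CArG box. Capitals mark these matches, and the paired ETS cores in the first run overlap each other. Both runs lie within the annotated span of Egr2 but share no base with its GENCODE exons.
Egr2 chr10:67537426-67537531 plus strand: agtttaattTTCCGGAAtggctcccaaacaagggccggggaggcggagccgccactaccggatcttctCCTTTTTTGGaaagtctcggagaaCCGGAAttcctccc
Egr2 chr10:67537619-67537868 plus strand: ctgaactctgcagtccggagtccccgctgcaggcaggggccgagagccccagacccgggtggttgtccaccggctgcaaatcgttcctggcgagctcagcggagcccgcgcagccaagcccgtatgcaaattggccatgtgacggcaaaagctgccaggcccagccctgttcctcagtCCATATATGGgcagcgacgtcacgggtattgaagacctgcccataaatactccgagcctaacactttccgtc

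A CArG box was found in 1.63% of the 32851 promoter windows of the table and an ETS core in 14.9%. The same search found no match to any of the 5 motifs in the window of the Egr2 start at 67535499 or in the windows of Egr4 and Nab2. A match describes the letters in these windows only.

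Egr3 (ENSMUSG00000033730; chromosome 14, 70077203 to 70082614, plus strand), which acts beside Egr1 in neurons, lymphocytes and muscle spindles, was, with Egr4, at or below 3 counts in every 0h library. At 0h it had no count in clone4_1 or clone8_1 and 1 count in clone8_2, that is 0, 0 and 0.121 CPM. At 2h it had 1217 and 1655 counts in clone 4 (138 and 146 CPM) and 666 and 923 counts in clone 8 (58.1 and 49.4 CPM). The rise was at least 405-fold against the level of 3 counts per 0h library (adjusted p = 0.000252 by edgeR). The pooled counts gave a ratio of 3705, with a 95% counting interval from 665 to 1.46e+05. At 4h Egr3 split by clone: 55.6 and 53.8 CPM in clone 4, but 2.96 and 2.64 CPM in clone 8, from 13 and 7 counts. The fall from 2h was 2.60-fold in clone 4 and 19.2-fold in clone 8 (both clones together: log2 fold change -2.40, SE 0.564, adjusted p = 0.00719), a call lost without the clone term (adjusted p = 0.117).

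In rev Egr3 was 63.0 and 74.6 CPM in clone 4 and 22.8 and 21.5 CPM in clone 8. Rev was above 4h in both clones, by 1.26-fold in clone 4 and 7.92-fold in clone 8, and the test over both clones did not pass (log2 fold change 1.21, SE 0.550, adjusted p = 0.128 by edgeR). Nor did the difference from 2h (log2 fold change -1.19, SE 0.513, adjusted p = 0.389), although rev was 2.07-fold lower than 2h in clone 4 and 2.43-fold lower in clone 8. This difference passed with only the 2 groups in the fit (adjusted p = 3.96e-06), in clone 4 alone (0.000893) and with total count scaling (0.000559). Relative to 0h, rev was at least 187.9-fold higher (adjusted p = 0.000411).

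Egr4 (ENSMUSG00000071341; chromosome 6, 85511121 to 85513589, minus strand), best known from male germ cells, gave few counts. It had 2, 0 and 1 counts at 0h, and 55, 83, 36 and 85 at 2h, the first 2 values from clone 4 (6.24 and 7.34 CPM) and the others from clone 8 (3.14 and 4.55 CPM). The rise was at least 22.0-fold against 3 counts per 0h library (adjusted p = 1.74e-07 by edgeR), and the pooled counts gave a ratio of 71.7 (95% counting interval 24.3 to 350.0). At 4h Egr4 had 1 and 5 counts in clone 4 and 0 in both libraries of clone 8, below every 2h library (11.5-fold lower by the means; adjusted p = 7.44e-06). In clone 8 the fall was at least 4.24-fold. Its call in 4h vs 0h (adjusted p = 0.0348) rested on clone 4. It was lost without 0h clone4_1 (adjusted p = 0.134), 0h clone8_1 (0.0757), 4h clone4_1 (0.0577) or 4h clone4_2 (0.685), without the clone term (0.0932) and with total count scaling (0.141). The call was also lost with the 20 most abundant and the mitochondrial genes left out (0.0787) and by the quasi-likelihood test in its form before edgeR 4 (0.0624).

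Rev brought Egr4 back to 55 and 16 counts in clone 4 (3.85 and 1.65 CPM) and 10 counts in each library of clone 8 (1.41 and 1.04 CPM). It rose 4.31-fold from 4h by the means (adjusted p = 0.00716 by edgeR), with overlap between the groups only through 4h clone4_2 at 1.23 CPM. In clone 4 alone the rise did not pass (log2 fold change 1.45, adjusted p = 0.093). With only rev and 4h in the fit the gene did not pass the count filter. Egr4 was below 2h (log2 fold change -1.47, SE 0.339, adjusted p = 0.0146), a call lost without 2h clone4_2 (0.0513), rev clone4_2 (0.107), rev clone8_2 (0.0791) or the clone term (0.17). That call was also lost in clone 4 alone (0.108) and in clone 8 alone (0.158).

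Nab1 (ENSMUSG00000002881; chromosome 1, 52457294 to 52500679, minus strand), a corepressor with no DNA-binding domain of its own, was the member with the highest counts before induction relative to its later level. It had 3.02 CPM in the 0h library of clone 4 and 4.88 and 5.33 CPM in those of clone 8. At 2h it had 32.4 and 36.5 CPM in clone 4 and 20.8 and 16.3 CPM in clone 8. All 2h values were above all 0h values, and the rise of 6.002-fold by the means was the smallest of the 6 (log2 fold change 2.26, SE 0.496, adjusted p = 0.0226 by edgeR). The call was lost without 0h clone4_1 (adjusted p = 0.0572), 0h clone8_1 (0.0506), 2h clone4_2 (0.0534) or 2h clone8_1 (0.076).

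At 4h Nab1 was 42.2 and 53.8 CPM in clone 4, above both 2h libraries of that clone, and 8.20 and 10.9 CPM in clone 8, below both. The means of the 2 groups were 26.5 ± 9.52 and 28.8 ± 22.7 CPM (SD, n = 4 each), and the additive model gave a log2 difference of -0.06 (SE 0.420, adjusted p = 0.927 by edgeR). In rev Nab1 was 50.5 and 61.9 CPM in clone 4 and 34.3 and 36.3 CPM in clone 8, its highest mean of the 4 groups (45.7 ± 12.95, SD, n = 4). Nab1 was above 0h at 4h (log2 fold change 2.20, SE 0.520, adjusted p = 0.00682; 0.102 with only the 2 groups in the fit) and 10.4-fold above it in rev (3.08, SE 0.509, adjusted p = 0.00349). Neither rev vs 4h (0.88, SE 0.423, adjusted p = 0.145) nor rev vs 2h (0.82, SE 0.406, adjusted p = 0.476) passed over both clones, though in each clone both rev libraries were above both 2h libraries. With only the 2 groups in the fit, rev vs 2h passed (adjusted p = 0.000507), as it did in clone 8 alone (0.0108).

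The promoter window of Nab1, a gene described as an Egr target, held 3 matches to the Egr site, where 5.55% of all windows held any. The stretches here come from the window around the RefSeq start at 52500448, read on the minus strand, and are shown because they are the only Egr sites found in the windows of the members searched. Capitals mark the site, which in the first stretch lies on the other strand. All 3 stretches lie in annotated exon sequence of Nab1.
Nab1 chr1:52500571-52500599 minus strand: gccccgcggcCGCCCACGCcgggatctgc
Nab1 chr1:52500539-52500567 minus strand: actcggccgcGCGTGGGCGggagccggag
Nab1 chr1:52500468-52500496 minus strand: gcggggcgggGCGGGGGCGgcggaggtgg

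Nab2 (ENSMUSG00000025402; chromosome 10, 127660918 to 127668568, minus strand), the corepressor that is itself induced with the immediate early genes in many cells, rose far more than Nab1. It had 0.594, 0.802 and 0.727 CPM at 0h, from 11, 12 and 6 counts. At 2h it had 113 and 80.5 CPM in clone 4 and 33.1 and 41.8 CPM in clone 8. The rise was 94.7-fold by the means (log2 fold change 6.20, SE 0.571, adjusted p = 0.000123 by edgeR), with no overlap. At 4h Nab2 was 75.1 and 84.4 CPM in clone 4 and 12.1 and 14.3 CPM in clone 8. The clone 4 values overlapped those at 2h, the clone 8 values were below them, and the difference did not pass (log2 fold change -0.75, SE 0.378, adjusted p = 0.145). It passed with only the 2 groups in the fit (-0.87, adjusted p = 0.0202).

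In rev Nab2 was 104 and 80.3 CPM in clone 4 and 53.6 and 46.5 CPM in clone 8. These values overlapped those at 2h, and the means were close, at 71.2 ± 26.5 in rev and 67.0 ± 36.8 CPM at 2h (SD, n = 4 each; log2 difference 0.19, SE 0.366, adjusted p = 0.912 by edgeR). Rev was 100.6-fold above 0h (log2 fold change 6.40, SE 0.573, adjusted p = 6.99e-05), and rev vs 4h did not pass (0.94, SE 0.383, adjusted p = 0.0894). Genes on the other strand share annotated exon bases with Nab2: 151 with Nemp1, 40 with Stat6 and 1050 with the antisense gene Gm16229. Whether counting used the strand is not given in the sources used here. Nemp1 was itself higher in 2h vs 0h (log2 fold change 1.08, SE 0.128, adjusted p = 1.13e-05), from 10.2 to 22.6 CPM. Stat6 was too (0.61, SE 0.182, adjusted p = 0.0476), and Gm16229 had at most 5 counts in any library. The part of these genes in the counts of Nab2 was not tested.

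Levels can be set between genes only per length, here as CPM per kb of annotated exon. At 2h Egr1 was the most abundant member by this measure, at 133.5 ± 59.5 CPM per kb (SD, n = 4). Nab2 (22.8 ± 12.5) and Egr3 (22.2 ± 11.7) followed, within each other's spread, and then Nab1 (6.46 ± 2.32). Egr4 (2.48 ± 0.862) and Egr2 (1.97 ± 0.483) came last and did not differ beyond their spread. In rev the order had changed. Nab2 (24.2 ± 9.001 CPM per kb) stood first by the means, followed by Egr1 (15.9 ± 6.86), Nab1 (11.2 ± 3.16) and Egr3 (10.3 ± 6.20), and by Egr2 (1.13 ± 0.424) and Egr4 (0.926 ± 0.591). These spreads include the difference between the clones. Within every rev library Nab2 was above Egr1, and Egr1 was above Nab1 and Egr3. Nab1 was below Egr3 in clone 4 (12.3 and 15.1 against 14.3 and 16.9) and above it in clone 8 (8.36 and 8.86 against 5.18 and 4.88).

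Ratios of counts within a library do not depend on library scaling, and the ratio of Nab2 to Egr1 was higher at each step after 2h. At 0h, from few counts of either gene, Nab2 had a geometric mean of 0.416 counts per count of Egr1 (0.236 to 0.622). At 2h the mean was 0.107, with values from 0.0821 to 0.154. At 4h the mean was 0.375 (0.317 to 0.418), and in rev 1.02 (0.834 to 1.19). The ranges of 2h, 4h and rev were apart, in both clones. The 0h range lay above that of 2h and held all 4h values, so the ratio at 4h was not above its level before induction. The log2 ratio rose by 1.80 from 2h to 4h (1.78 in clone 4 and 1.83 in clone 8) and by 1.45 from 4h to rev (1.22 and 1.67). Each step gave p = 0.0286 in an exact two-sided permutation test over 4 and 4 libraries, the smallest p that this design allows. Over the 6 tests of ratios the Benjamini-Hochberg adjusted value was 0.0571, so no exact test of a ratio passed 0.05.

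The geometric mean of Egr3 was 0.158 counts per count of Egr1 at 2h, 0.146 at 4h and 0.590 in rev. At 0h, with at most 1 count of Egr3 in a library, it was 0.0307. At 4h the clones lay on either side of 2h, with 0.310 and 0.245 in clone 4 and 0.0982 and 0.0617 in clone 8, and the step gave an exact permutation p = 0.886 (adjusted 1). The step from 4h to rev was 2.01 on the log2 scale (exact permutation p = 0.0286, adjusted 0.0571). Between the corepressors, Nab1 was in excess at 0h, with 5.83 counts per count of Nab2 (4.91 to 6.85), and Nab2 afterwards. The ratio was 0.423 at 2h, 0.658 at 4h and 0.657 in rev, with no library above 0.782.

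**Figure D2:**
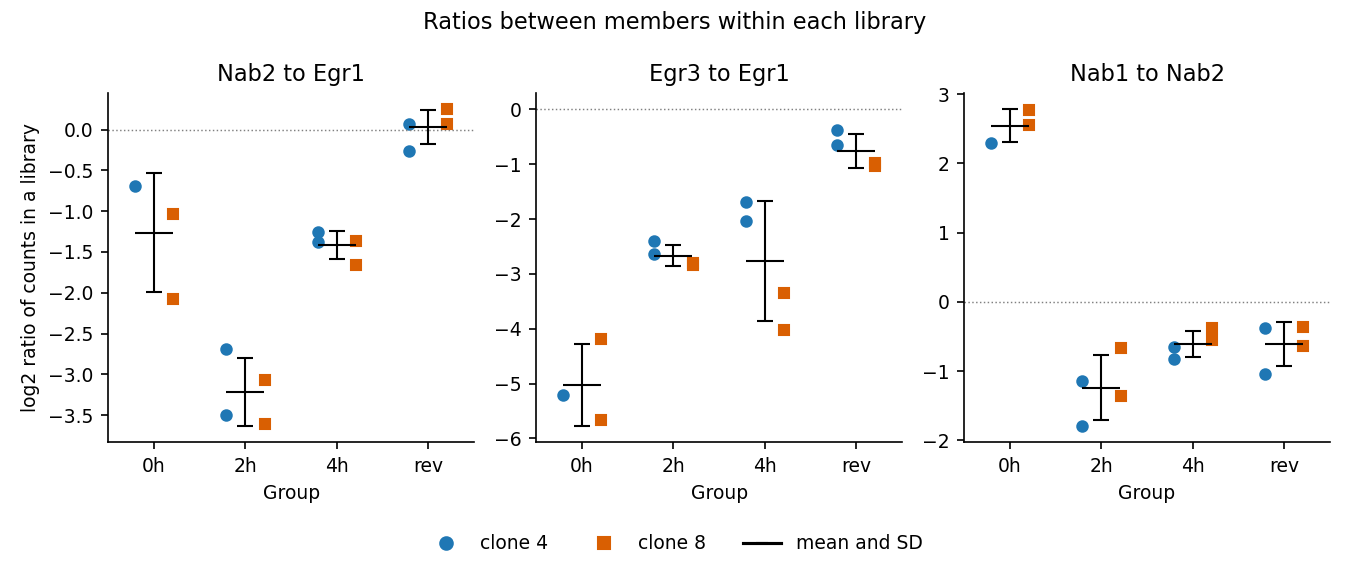
Log2 ratio of the counts of 2 members (0.5 added to each count) in each library, by group; circles are clone 4, squares clone 8, and the black bars are the mean and SD. The ratio of Nab2 to Egr1 climbs from 2h through 4h to rev in both clones, while the ratio of Egr3 to Egr1 divides the clones at 4h.

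Levels and responses differed between the clones. Over all groups 5 of 6 members were lower in clone 8 than in clone 4, where 8.11% of all tested genes were called lower. The log2 differences were -1.21 for Egr1 (SE 0.374, adjusted p = 0.0482 by edgeR), -0.75 for Egr2 (adjusted p = 0.0293), -2.15 for Egr3 (adjusted p = 0.0087), -1.14 for Egr4 (adjusted p = 0.0121) and -1.38 for Nab2 (adjusted p = 0.0095), and -0.95 for Nab1 (adjusted p = 0.0687), which did not pass. The Nab1 difference passed in 3 of 5 alternative settings: DESeq2 (adjusted p = 0.0138), total count scaling (0.000615) and the quasi-likelihood test in its form before edgeR 4 (0.043). It also passed in 1 of 15 fits that left out a library, that without 0h clone4_1 (0.00467). The Egr1 call was lost when any of 13 of the 15 libraries was left out, all but 0h clone4_1 and 0h clone8_2 (largest adjusted p 0.112, without 4h clone8_2), and with every gene of at least 1 count tested (0.0651). The Egr2 call was lost in 8 of 15 such fits, those without any rev library, 2h clone4_2, 4h clone4_2, 4h clone8_1 or 4h clone8_2 (largest 0.067) and with total count scaling (0.157), and the Egr4 call without rev clone4_1 (0.0558). At 0h the direction was not the same: the single library of clone 4 had the lowest value of the 3 for Egr1, Egr2, Nab1 and Nab2.

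From 2h to 4h the log2 fold change was lower in clone 8 than in clone 4 for Egr1, Egr3, Nab1 and Nab2. The difference in log2 fold change, clone 8 minus clone 4, was -1.27 for Egr1 (SE 0.304, adjusted p = 0.0324), -2.87 for Egr3 (SE 0.444, adjusted p = 0.00152), -1.45 for Nab1 (SE 0.251, adjusted p = 0.00196) and -1.24 for Nab2 (SE 0.247, adjusted p = 0.00672) by edgeR's interaction test. So 4 of 6 members were called lower, beside 2.00% of all genes. Egr2 (-1.68, SE 0.565, adjusted p = 0.136) and Egr4, with 0 counts in clone 8 at 4h, were not called. Within clone 4 alone neither Nab1 (0.46, SE 0.179, adjusted p = 0.0798) nor Nab2 (-0.30, SE 0.181, adjusted p = 0.261) changed by the test. In clone 8 alone both fell, by 0.96 (SE 0.181, adjusted p = 0.000814) and 1.51 (SE 0.162, adjusted p = 4.35e-06) on the log2 scale.

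**Figure D3:**
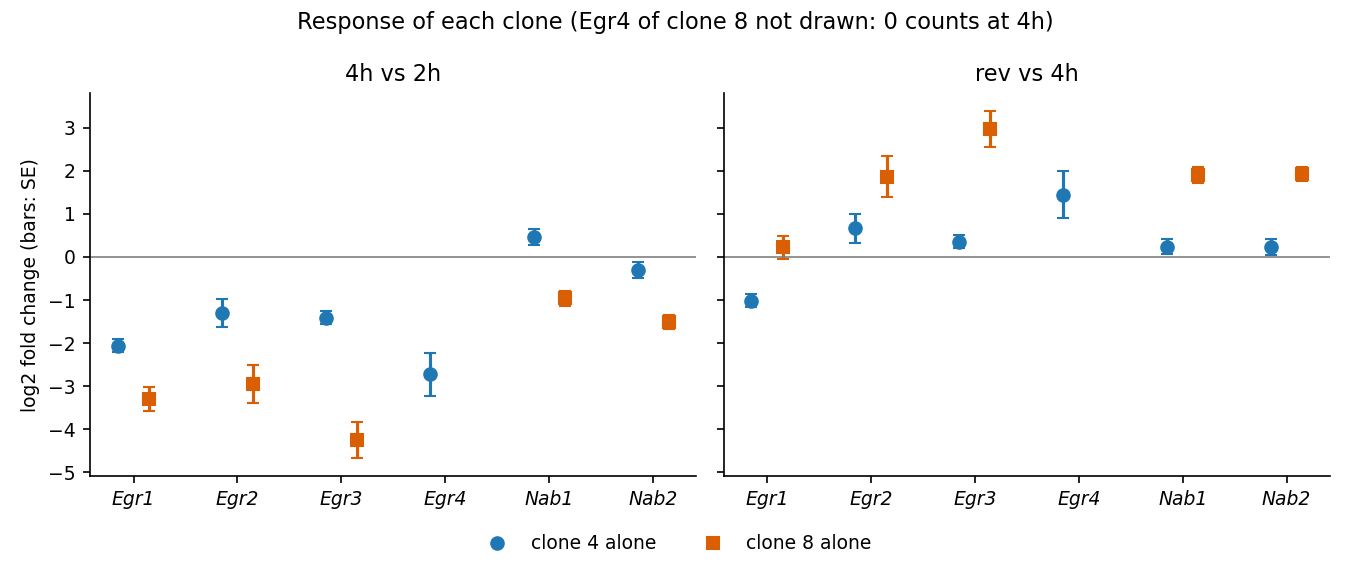
Log2 fold change with its SE for each gene in clone 4 alone (circles) and clone 8 alone (squares), for 4h vs 2h (left) and rev vs 4h (right). Clone 8 lies below clone 4 on the left and above it on the right for all 5 genes drawn in both clones.

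From 4h to rev the log2 fold change of these 4 genes was higher in clone 8 than in clone 4. For Egr1 clone 4 fell further (-1.01, SE 0.147, adjusted p = 0.000346) and clone 8 did not pass (0.22, adjusted p = 0.578). Egr3 (2.97), Nab1 (1.89) and Nab2 (1.93) rose in clone 8, and none of the 3 passed in clone 4 (adjusted p = 0.148, 0.427 and 0.458). The difference was 1.26 for Egr1 (SE 0.305, adjusted p = 0.0379), 2.64 for Egr3 (SE 0.445, adjusted p = 0.00293), 1.68 for Nab1 (SE 0.251, adjusted p = 0.000535) and 1.72 for Nab2 (SE 0.247, adjusted p = 0.000365), so that 4 of 6 members were called, beside 1.91% of all genes in this direction. Both steps share the 4h libraries. Tested jointly over the groups, the clone difference passed for 4 of 6 members, beside 3.18% of all genes. Under scaling by total counts 2 calls remained in 4h vs 2h (Egr3 and Nab1) and 1 in rev vs 4h (Egr3). For Egr1 the 4h vs 2h call was lost in 6 of 15 fits that left out a library (each 2h library, 4h clone4_2 or 4h clone8_1; largest adjusted p 0.202). Its rev vs 4h call was lost in 11 (each 2h or rev library, 4h clone4_1, 4h clone4_2 or 4h clone8_1; largest 0.121). The Nab2 call in 4h vs 2h was lost without 4h clone8_1 (0.0719). The clones also differed in depth at 4h, with 1552022 and 6658950 counts in clone 4 and 6209289 and 3492073 in clone 8, and the part of depth was not tested.

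Among 10 other immediate early genes, 7 were higher in 2h vs 0h, where 3.98% of all tested genes were. The median log2 fold change of the 10 was 1.85, beside 0.01 over all tested genes. The largest rises were in Fos (5.61), Junb (5.27), Arc (3.67) and Fosl1 (2.81), the first 2 and Fosl1 being AP-1 subunits and Arc a synaptic gene. In rev vs 0h the 10 genes had a median of 0.12. Arc (2.37, adjusted p = 4.41e-05 by edgeR) and Fosl1 (1.78, adjusted p = 0.0185) were higher and Atf3 (-0.93, adjusted p = 0.0427) lower, where 6.49% of all genes were higher and 4.66% lower. The median of the 6 Egr and Nab genes there was 4.64 by the model's fits, with Egr3 and Egr4 starting from the floor. In 4h vs 2h 6 of the 10 were lower (median -1.47), where 19.2% of all genes were, with Atf3 at -4.79 (adjusted p = 3.66e-07). In rev vs 2h, 6 of the 10 genes were lower (median -1.50), where 0.922% of all genes were. The largest falls were in Fos (-3.89, SE 0.406, adjusted p = 0.00027), Junb (-3.43, SE 0.542, adjusted p = 0.00797), Fosb (-2.41, SE 0.503, adjusted p = 0.00695) and Ier2 (-1.83, SE 0.172, adjusted p = 1.39e-05). The Egr1 value of -3.07 lay within the range of these genes, and Nab1 and Nab2 were above 0 without passing the test.

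**Figure D4:**
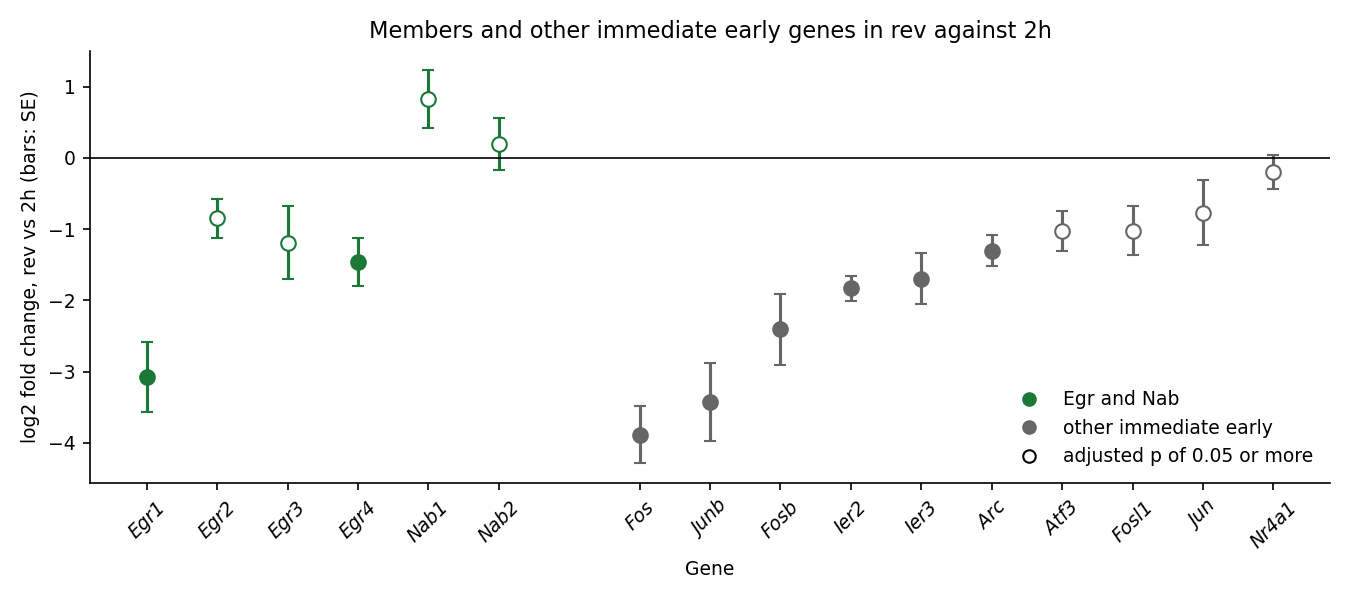
Log2 fold change in rev vs 2h with its SE for the 6 Egr and Nab genes (green) and 10 other immediate early genes (grey, in order of value); filled symbols passed an adjusted p of 0.05. Fos, Junb and Egr1 lie below -3, and the 2 Nab genes are the only points above 0.

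Of 7 regulators of Egr transcription (SRF, its ETS partners and cofactors, and Creb1), only Elk4, an ETS partner of SRF, was called higher in 2h vs 0h (log2 fold change 0.63, SE 0.126, adjusted p = 0.0033 by edgeR). The median of the list was 0.00, beside 0.01 over all genes, of which 3.98% were called higher. In 4h vs 2h 5 of the 7 were higher, beside 19.7% of all genes, and Elk4 was lower (-0.59, SE 0.119, adjusted p = 0.0005), beside 19.2%. The largest rises were in Elk3 (1.04, adjusted p = 0.0252), Mkl2, a cofactor of SRF (0.62, adjusted p = 0.000333) and Elk1 (0.49, adjusted p = 0.0175). In rev vs 4h Mkl2 (-0.53), Srf (-0.46) and Mkl1 (-0.43) were lower, where 15.6% of all genes were, and Elk4 was higher (0.33), where 15.1% were.

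The Nab proteins repress in part through Chd4 and the nucleosome remodelling and deacetylase complex. Of 13 genes of the complex, 2 were higher in 2h vs 0h, where 3.98% of all genes were: Chd3 (log2 fold change 1.34, SE 0.272, adjusted p = 0.00904 by edgeR) and Rbbp7 (0.38, SE 0.0837, adjusted p = 0.00751). The same 2 were higher in rev vs 0h, at 1.46 and 0.39, where 6.49% of all genes were. In 4h vs 0h 4 were higher and 4 lower, beside 20.5% of all genes higher and 18.9% lower, the median being 0.09 beside 0.03 over all genes. The largest of these were Mbd2 (0.67) and Mta3 (0.49) upward and Rbbp4 (-0.59) and Mbd3 (-0.39) downward.

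Of 15 genes described as Egr targets in other cells, 12 passed the filter on low counts and 1 was higher in 2h vs 0h, F3 (tissue factor; log2 fold change 1.04, SE 0.245, adjusted p = 0.0116 by edgeR). Over all tested genes 3.98% were called higher there. The list's median was 0.22, beside 0.01 over all genes. In 4h vs 2h Pdgfa, a growth factor gene, was higher (2.55, SE 0.256, adjusted p = 1.38e-07), and Pdgfb (-1.62), the cell cycle inhibitor gene Cdkn1a (-1.16) and Cdk5r1 (-1.04) were lower. These were 1 higher and 3 lower of the 12 tested, where 19.7% of all genes were higher and 19.2% lower, so the list did not stand out. In rev vs 4h Pdgfa was lower (-1.96, adjusted p = 4.79e-06) and Pdgfb higher (2.16, adjusted p = 0.000516), where 15.6% of all genes were lower and 15.1% higher. The median in rev vs 0h was 0.11, beside 0.02 over all genes, with Pdgfb higher (1.36) and Cdkn1a lower (-1.08). Over all genes 6.49% were higher there and 4.66% lower.

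Across the 15 libraries and 12286 genes with a mean of at least 1 CPM, the genes with the highest Pearson r to a member on log2 CPM were described without a test, since the libraries share groups, clones and depth. Egr1 was most like Dusp6, an ERK phosphatase gene (r = 0.972), Arc (0.965) and Ddx5 (0.945). Egr3 was most like Rrad, a small GTPase gene (r = 0.990), Lor (0.970) and Ddx5 (0.970), and Nab2 was most like Rrad (0.981), Lor (0.956) and Phlda2 (0.954). For Egr2 the leading genes were Klf10 (0.956), Rrad (0.955) and Ddx5 (0.948), and for Egr4 they were Ocel1 (0.937), Cyp51 (0.935) and Adamts1 (0.930). Nab1 was most like Twist1 (0.985), Phlda2 (0.965) and Zdhhc20 (0.961). Among the members themselves r ranged from 0.711 (Egr4 and Nab1) to 0.972 (Egr3 and Nab2), so Nab2 followed Egr3 more closely than it followed Nab1 (0.942) or Egr1 (0.903).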

How the data were processed

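RNA of 15 samples was depleted of ribosomal RNA before sequencing, per the labels' protocols. The deposited values are raw counts per gene with no normalization by the authors seen in the values. The submitters' processing notes name bcl2fastq 2.19.1, STAR 2.5.3a and build mm10. The counting tool, annotation and use of strand are not given in the sources used here. Names, positions and exon lengths came from GENCODE M21 (52403 of the 52636 identifiers matched).

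Counts were analysed with edgeR 4.0.16 in R 4.3.3: TMM scaling, a model of group and clone over 15 libraries, and robust quasi-likelihood F tests in the bias-adjusted form of edgeR 4. Genes passed filterByExpr with the groups at a count of 10 and a total of 15 (13451 genes, all 6 members among them). Calls had a Benjamini-Hochberg adjusted p under 0.05. The SE is the log2 fold change divided by the root of F. Clone differences came from the interaction of group and clone. Folds are ratios of mean CPM. Where every library of a group had 3 counts or fewer, folds are bounds against 3 counts, a level of up to 0.423 CPM and, at 4h, 1.83 CPM. Floors and intervals cover counting error only. The fits were tested on simulated data.

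Named genes are the members, at most 4 called genes of each of 4 lists with the largest change, the 3 most alike genes, and overlapping genes. Members and lists were chosen with earlier results of these data known. Alternatives were other scalings, filters and covariates, DESeq2 1.42.0, single clones, and each library left out. Egr1 and Egr3 had no promoter entry in the table used. The level of the gene in the inducible construct is not reported here.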

Additional observations from a re-analysis of the deposited data

Results flagged for a closer look

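The responses of the clones differed by the interaction tests of edgeR. In 4h vs 2h, clone 8 minus clone 4 was -1.27 for Egr1, -2.87 for Egr3, -1.45 for Nab1 and -1.24 for Nab2 on the log2 scale. In rev vs 4h the differences were 1.26 for Egr1, 2.64 for Egr3, 1.68 for Nab1 and 1.72 for Nab2. Jointly over the groups the adjusted p was 0.000359 for Egr1, 0.00213 for Egr3, 1.81e-05 for Nab1 and 7.65e-05 for Nab2. The 2 steps share the 4h libraries and 0h holds 1 library of clone 4, which enters the joint test.

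For Nab1 the libraries of the clones lay on opposite sides of 2h at 4h. Its ratio of mean CPM was 1.39 in clone 4, with both 4h libraries above both 2h libraries, and 0.516 in clone 8, with both below. The difference between the clones passed (adjusted p = 0.00196 by edgeR), as did the fall in clone 8 alone (adjusted p = 0.000814), and the higher value in clone 4 alone did not (0.46, adjusted p = 0.0798).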

How the results depend on the processing

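Of 513 values of single members under alternative settings, 467 kept their direction where called and their side of the threshold, and 573 of 630 did so when a library was left out. Of the values called, 1 changed direction: Egr4 in 4h vs 0h was -2.14 in clone 8 alone (adjusted p = 0.549), where it had 0 counts at 4h and 1 at 0h. Of those not called, Egr1 in rev vs 4h was 0.22 in clone 8 alone, Nab2 in rev vs 2h -0.07 in clone 4 alone, and Nab1 in 4h vs 2h above 0 in several fits, with 0.46 in clone 4 alone. Members called in rev vs 4h (2) were 5 under total count scaling and in clone 8 alone, and 1 without the clone term, with only the groups compared and in clone 4 alone. Without the clone term this was Egr4. With only the groups compared it was Egr2, and Egr4 did not pass the count filter. In clone 4 alone it was Egr1, which fell. In rev vs 2h (2 called) edgeR called 0 without the clone term, with 3 at an unadjusted p under 0.05. DESeq2, with the clone term, called 3, and edgeR with only the groups compared called 5. In 4h vs 0h (6 called) 3 were called with only the groups compared, where Egr2 and Egr4 did not pass the count filter. Under total count scaling the clone difference was called in 2 members in 4h vs 2h and 1 in rev vs 4h, in place of 4. The median log2 fold change of all genes moved with that scaling to -0.18 in 2h vs 0h, -0.73 in 4h vs 0h, -0.57 in 4h vs 2h, 0.45 in rev vs 4h, -0.30 in rev vs 0h, -0.14 in rev vs 2h and -0.51 in the clone difference of 4h vs 2h. Leaving out a library gave 2 to 6 members called between clones, 1 to 2 in rev vs 2h, 1 to 3 in rev vs 4h and 2 to 4 in the clone difference of 4h vs 2h. The cause of these shifts was not tested.

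Over all genes, 867 were called in 2h vs 0h, with 266 under total count scaling and 1494 with mitochondrial genes and the 20 most abundant genes left out. The form of the quasi-likelihood test used before edgeR 4, added after the data were seen, called 1327. There were 1500 calls in rev vs 0h (696 to 2934 over the alternatives), in rev vs 2h 311 (96 to 575), in rev vs 4h 4140 (1646 to 4134), in 4h vs 0h 5300 (2941 to 6697), in 4h vs 2h 5237 (2926 to 5356), between clones 2492 (761 to 2660), and in the clone differences 422 in 4h vs 2h (147 to 447), 377 in rev vs 4h (44 to 441) and 428 jointly (113 to 668). Without 0h clone4_1, 308 were called in 2h vs 0h and 511 in rev vs 0h.

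Correlations of deviations between libraries with the same number in a clone lay between -0.194 and 0.261. With at most 2 libraries of a clone in a group, these values cannot show whether libraries with the same number shared a culture. With a replicate block in place of the clone, 6 members were called in 2h vs 0h, 6 in 4h vs 0h, 4 in 4h vs 2h, 2 in rev vs 4h, 6 in rev vs 0h and 2 in rev vs 2h, as without the block. At 4h a count of 3 stood for 0.683 to 1.83 CPM, depending on the library, which limits the levels of Egr2 and Egr4 there.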
